A study of Homo sapiens with 6 samples.

Results

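VCaP-CR, a castration-resistant prostate cancer cell line, was compared with its castration-sensitive parent VCaP across 19951 protein-coding genes. These genes were taken by the class given in the deposited tables, which list 51698 entries of all classes. The series holds 6 libraries, 1 for each of 3 sensitive lines and 3 resistant lines, and 2 of them enter this comparison. VCaP is an established line from a prostate cancer metastasis that carries the TMPRSS2-ERG gene fusion. VCaP was grown in DMEM with 10% fetal bovine serum. VCaP-CR was grown in RPMI with 10% charcoal-stripped serum, which is depleted of steroids, and with the 1XB27 supplement. No other treatment was given to either. Resistance, basal medium, serum and supplement therefore differ together and cannot be told apart. How VCaP-CR was derived, and whether it is a clone, is not given in the sources used here. LnCaP with LnCaP-abl and LAPC4 with LAPC4-CR, the other pairs, are used below only to show where the VCaP pair differs; their resistant lines were grown in the same stripped medium as VCaP-CR, and their parents in RPMI with 10% untreated serum.

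Androgens, testosterone and its derivatives, switch on a transcription program in luminal prostate cells. It includes secreted proteases such as prostate-specific antigen and many metabolic genes, and castration withdraws the hormone. Resistant tumours can keep the program active, for example by making their own androgen, and some instead take on features of neuroendocrine cells, which store peptides in dense-core granules.

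With 1 library for each line there is no replicate and no p-value. Levels are fragments per kilobase of gene length, set relative to the library total (FPKM), scaled by the median ratio between the libraries, and a fold is the VCaP-CR level over the VCaP level. Each fold carries an exact 95% counting interval, which covers counting error only and not the spread between cultures. A gene is called higher or lower where the fold is at least 2 in that direction and the interval excludes 1. Calls were made for the 10488 genes with a mean level of at least 1 scaled FPKM, which are the tested genes. The total count was 11548845 in VCaP and 17966431 in VCaP-CR, of which protein-coding genes took 62.8% and 68.0%. In such bulk RNA, fewer cells of a type and less RNA per cell cannot be told apart.

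Of the tested genes, 464 (4.42%) were called higher in VCaP-CR and 380 (3.62%) lower, and the median log2 fold was 0.00. The same rule called 1054 genes higher (9.43%) and 983 lower (8.79%) of 11179 in the LnCaP pair, and 1054 higher (9.7%) and 1002 lower (9.22%) of 10865 in the LAPC4 pair. With the trend of the fold on gene length and GC content removed, 441 genes (4.2%) were called higher and 321 (3.06%) lower in the VCaP pair. Of the calls, 373 higher and 286 lower were shared with the reported ones. The median log2 fold over 5 equal classes of genes ran from -0.16 in the shortest to 0.21 in the longest, and from 0.16 at the lowest GC content to -0.24 at the highest. The share called lower fell over the same classes from 6.57% in the shortest genes to 1.81% in the longest, and rose from 2.08% to 6.25% with GC content. The share called higher went from 3.53% to 7.15% with length and from 5.04% to 2.08% with GC content. Close to the threshold, ERCC5 was called higher at 2.0002-fold and ARHGEF12 was not called at 1.998-fold.

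**Figure D1:**
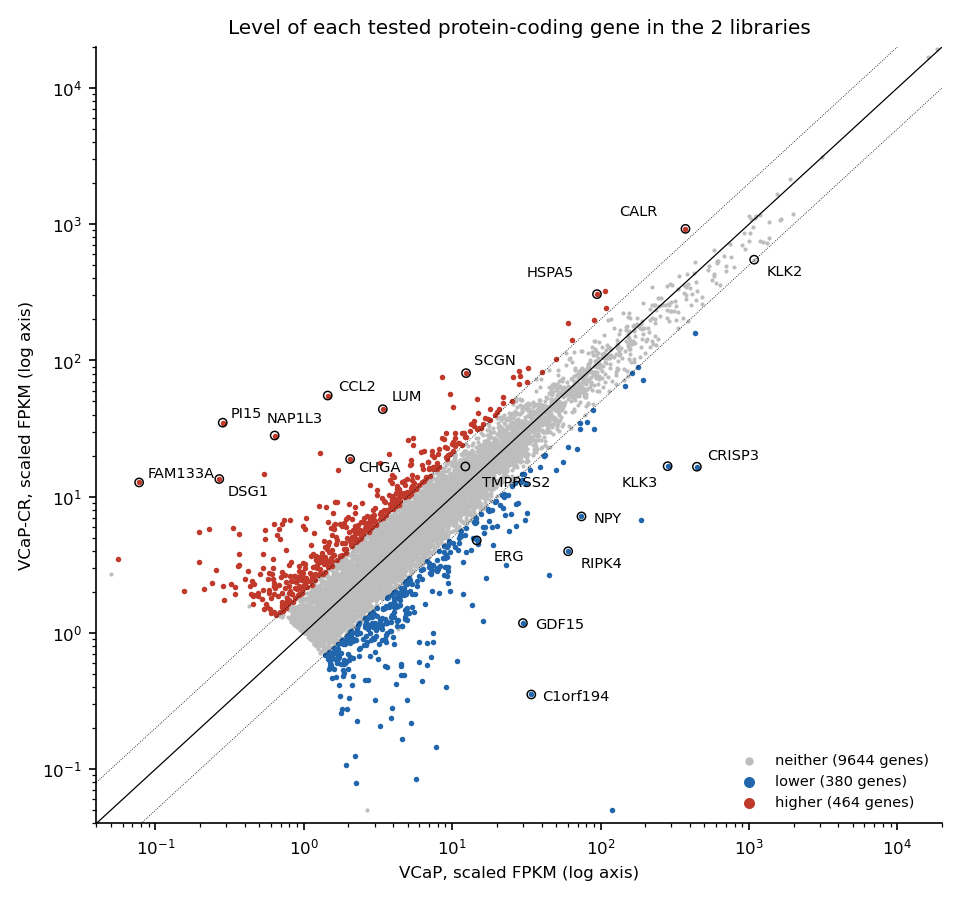
Scaled FPKM in VCaP (x axis) against VCaP-CR (y axis), both on log axes, for each of the 10488 tested protein-coding genes; levels under 0.05 are drawn at 0.05, at the lower edge. Red points are the 464 genes called higher and blue points the 380 called lower, the solid line marks equal levels and the dotted lines 2-fold. FAM133A and PI15 lie farthest above the line among the labelled genes, and C1orf194 and CRISP3 lie far below it.

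Luminal epithelial identity was checked first. KRT8 and KRT18, keratins of luminal epithelium, had levels of 13.6 and 20.1 in VCaP against 11.7 and 15.5 in VCaP-CR. Levels below are scaled FPKM, VCaP first. FOXA1, a pioneer transcription factor of luminal cells, was at 95.5 and 97.0, and HOXB13, a prostate homeobox factor, at 37.7 and 31.04. EPCAM was at 73.2 and 86.1. None of these 5 genes was called in either direction. Of 22 tested luminal genes 3 were called higher and 3 lower, 13.6% each way, against 4.42% and 3.62% of all tested genes. The median log2 fold of the luminal genes was -0.14. Those called lower were KLK3, ACPP and TRPM8, and those called higher include DSP and FOLH1, all with values below. The summed level of the list was 1259 and 869. ERG, the fused gene, marks the line: its level was 14.6 in VCaP and 4.78 in VCaP-CR, and no library of the other pairs exceeded 0.197.

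Most androgen-induced genes were not called in VCaP-CR, but a larger share was called lower than among all tested genes. Among 36 tested androgen-induced genes, 29 were not called, 6 (16.7%) were called lower and 1 (2.78%) higher. Over all tested genes 3.62% were called lower and 4.42% higher. The median log2 fold of the list was -0.34, against 0.00 over all tested genes. KLK3 (ENSG00000142515, hg18 chromosome 19, 56049983 to 56055832), which encodes prostate-specific antigen, was at 283 in VCaP and 16.8 in VCaP-CR, 16.9 times lower (95% counting interval 15.6 to 18.3). KLK2, the neighbouring kallikrein protease, was at 1084 and 549, which is 1.97 times lower (1.94 to 2.005) and just short of a call. TRPM8, a cold-sensing cation channel, was at 23.1 and 3.17, 7.30 times lower (6.59 to 8.09). ACPP, prostatic acid phosphatase, was at 435 and 158, 2.75 times lower (2.69 to 2.81). The prostaglandin receptor gene PTGER4 was 3.63 times lower, PMEPA1, an inhibitor of TGF-beta signalling, 2.25 times lower and the small GTPase gene RHOU 2.11 times lower.

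The classical androgen targets that follow stayed within 2-fold of the parent. TMPRSS2, a serine protease whose promoter drives the fusion, was at 12.3 in VCaP and 16.7 in VCaP-CR, 1.36-fold higher (1.25 to 1.48). FKBP5, a cochaperone of steroid receptors, was at 6.07 and 4.72, 1.29 times lower (1.17 to 1.42). SLC45A3 was at 47.6 and 59.2 and KLK4 at 26.2 and 19.8. None of these 4 genes was called.

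Beside these values, the same list moved further in the other pairs. In the LnCaP pair 29 of 38 tested members were called lower, with a median log2 fold of -1.78, and in the LAPC4 pair 22 of 36, with -1.51. KLK2 was at 66.4 in LnCaP, 0.670 in LnCaP-abl, 53.9 in LAPC4 and 1.36 in LAPC4-CR. In the same order TMPRSS2 was at 40.9, 10.1, 62.1 and 0.675. Thus both genes were called lower in these pairs and neither was called in the VCaP pair. With 1 library a line, the difference between pairs was not tested.

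**Figure D2:**
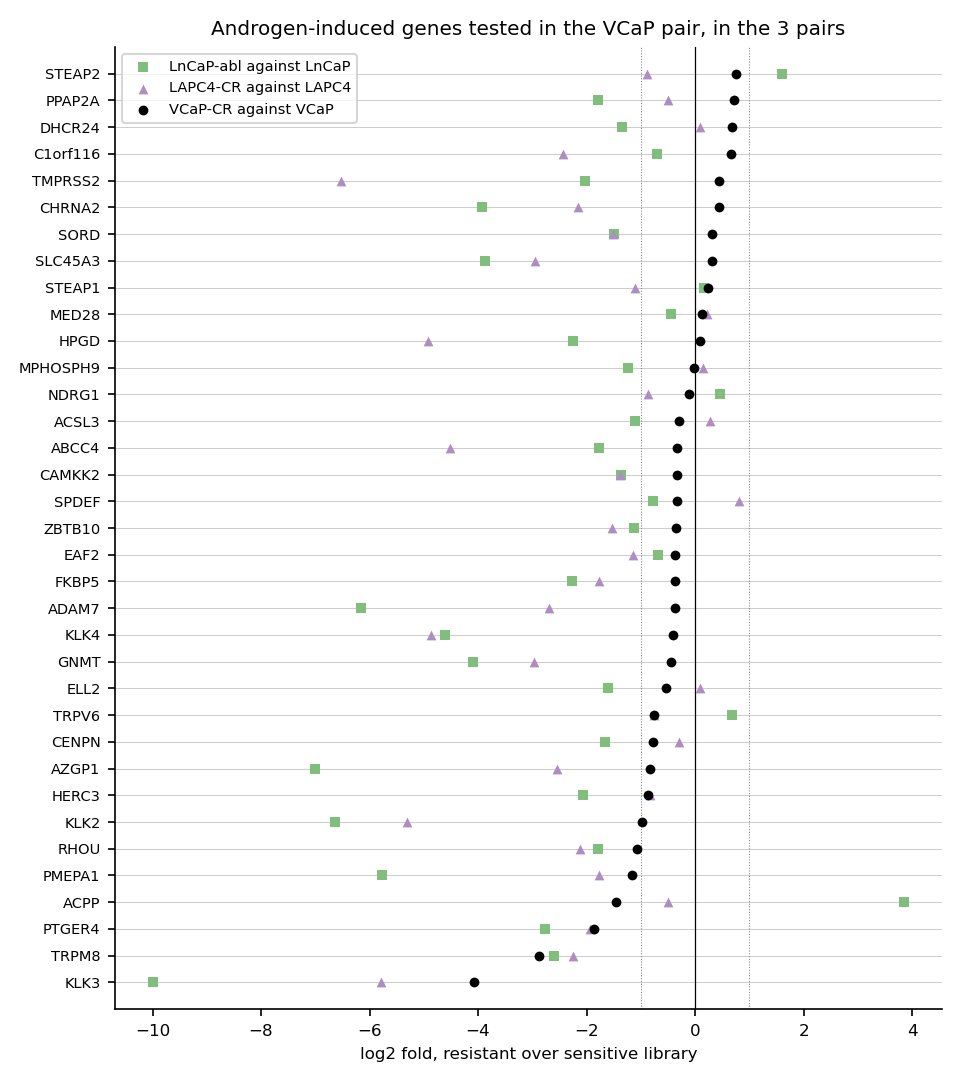
Log2 fold of the resistant over the sensitive library (x axis) for 35 of the androgen-induced genes tested in the VCaP pair (rows, in order of the VCaP pair's fold); black circles are the VCaP pair, green squares the LnCaP pair and purple triangles the LAPC4 pair, and dotted lines mark 2-fold. The black circles lie closer to 0 than the other symbols for KLK2, TMPRSS2, FKBP5 and SLC45A3, and KLK3 is the lowest gene in the VCaP pair.

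The KLK3 promoter is shown because KLK3 has the largest fall in the androgen-induced list. The 250 bases before its RefSeq start site (GRCh38.p14, chr19:50854665-50854914, plus strand) hold AGAACA, a half-site of the androgen response element, in capitals.
KLK3: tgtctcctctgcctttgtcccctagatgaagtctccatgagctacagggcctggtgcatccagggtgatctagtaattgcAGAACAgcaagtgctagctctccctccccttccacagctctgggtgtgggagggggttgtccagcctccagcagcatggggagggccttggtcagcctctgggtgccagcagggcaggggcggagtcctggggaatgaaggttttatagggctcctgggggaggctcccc
Searched on both strands, this half-site is in 12.4% of 27305 RefSeq promoters of this length and in 7.25% of the 7660 that matched a tested gene by symbol. It is in 7.96% of the matched genes called higher and in 7.31% of those called lower, close to the share of all tested genes.

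Genes that androgen represses were called in both directions. Of 14 tested members, 2 (14.3%) were called higher and 5 (35.7%) lower, against 4.42% and 3.62% of all tested genes. The median log2 fold of the list was -0.76. AMIGO2, a neuronal adhesion molecule, was at 0.625 in VCaP and 6.36 in VCaP-CR, 10.2-fold higher (6.94 to 15.5), and FOLH1, prostate-specific membrane antigen, was at 10.1 and 21.8, 2.16-fold higher. AMIGO2 passed the level filter only through VCaP-CR. The members called lower were UGT2B10, UGT2B17, UGT2B15, HSD17B6 and CXCR7. UGT2B enzymes attach glucuronic acid to androgens and so inactivate them. In the list of these enzymes 4 of 5 tested members were called lower: UGT2B4 was at 14.9 and 4.49, UGT2B17 at 7.32 and 2.02, UGT2B15 at 11.5 and 5.15 and UGT2B10 at 4.99 and 1.24. These enzymes are near-identical neighbours on chromosome 4, so how their reads were divided is uncertain. HSD17B6, which can convert androgen metabolites back to active androgen, was at 8.83 and 2.66, 3.31 times lower. In the LnCaP pair UGT2B17 was instead 39.4-fold higher in the resistant line and UGT2B15 16.4-fold higher, while in the LAPC4 pair all 5 tested enzymes were called lower.

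Among cofactors and steroid enzymes, members were called in both directions. Of 24 tested coregulators and steroid receptors, 2 (8.33%) were called higher and 1 (4.17%) lower, against 4.42% and 3.62% of all tested genes. CITED2, a partner of the CBP and p300 coactivators, was at 14.6 and 52.5, 3.59-fold higher (3.20 to 4.04), and the coactivator gene NCOA2 was at 14.0 and 32.8, 2.34-fold higher (2.21 to 2.47). NR3C2, the mineralocorticoid receptor, was at 1.498 and 0.718, 2.09 times lower (1.56 to 2.79). Of 13 tested steroid synthesis enzymes HSD17B12 was called higher, at 6.44 and 13.1, and HSD17B6 lower, which is 7.69% each way. CYP17A1 and HSD3B1, needed for androgen synthesis from cholesterol, were under the level filter, at 0.104 and 0.108 in VCaP and at 0.177 and 0.223 in VCaP-CR.

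ERG (hg18 chromosome 21, 38673819 to 38955574), an ETS transcription factor that is under control of the TMPRSS2 promoter when fused, was called lower while TMPRSS2 was not. Its level of 14.6 in VCaP and 4.78 in VCaP-CR makes it 3.06 times lower (2.79 to 3.36). The gene-level count does not separate fused from unfused ERG RNA. Of 24 tested genes on a list of genes associated with ERG in prostate cancer, 9 (37.5%) were called lower and 2 (8.33%) higher. Over all tested genes 3.62% were called lower and 4.42% higher. The median log2 fold of the list was -0.48. CRISP3, a secreted cysteine-rich protein, was at 446 and 16.6, 26.9 times lower (24.9 to 29.05). AMACR, a peroxisomal racemase used as a marker of prostate cancer, was at 6.02 and 0.856, 7.03 times lower (5.47 to 9.15). FZD4, a WNT receptor, was 4.79 times lower, the GTPase regulator gene ARHGDIB 4.42 times, the phospholipase gene PLA1A 4.29 times and the lipoxygenase gene ALOX15 3.87 times. TDRD1, a germ-line protein and a known ERG target, was at 37.9 and 45.0 and was not called. The adhesion receptor gene GPR110 was 5.66-fold higher and F5, coagulation factor V, 4.75-fold higher. The same list was also called lower in part in the other pairs, whose ERG levels were at most 0.197: 6 of 17 tested members in the LnCaP pair, with a median of -0.57, and 10 of 15 in the LAPC4 pair, with -1.48. CRISP3 was called lower in both, at 1.78 and 0.583 in the LnCaP pair and 413 and 9.88 in the LAPC4 pair.

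A program of protein folding in the endoplasmic reticulum was higher in VCaP-CR. When unfolded proteins build up in this compartment, the sensors ATF6, IRE1 and PERK raise chaperones, degradation factors and, through ATF4, amino acid supply, which is called the unfolded protein response. Of 35 tested genes of this response, 16 (45.7%) were called higher and 1 (2.86%) lower, against 4.42% and 3.62% of all tested genes. The median log2 fold was 0.81. With length and GC content accounted for, 16 were again called higher and 1 lower, and over all the alternatives run the count of higher members lay between 12 and 17.

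The chaperones carried most of these calls. HSPA5 (ENSG00000044574, hg18 chromosome 9, 127036953 to 127043443), which encodes the luminal chaperone BiP, had a level of 94.6 in VCaP and of 307 in VCaP-CR, 3.25-fold higher (3.14 to 3.36). HSP90B1, the luminal member of the HSP90 family, was at 107 and 323, 3.03-fold higher (2.95 to 3.12). CALR, the calcium-binding chaperone calreticulin, was the most abundant member, at 373 and 925, 2.48-fold higher (2.42 to 2.54). The disulfide isomerase genes PDIA4 (59.97 and 189) and PDIA6 (28.1 and 66.6) were 3.15-fold and 2.38-fold higher. MANF, a secreted factor that binds BiP, had the largest fold of the list, at 10.2 and 45.4, 4.46-fold higher (3.90 to 5.12). CRELD2, DNAJC3, SDF2L1 and DNAJB9, which encode further luminal folding factors, were 3.44-fold, 3.27-fold, 2.56-fold and 2.03-fold higher. HYOU1, another chaperone of this compartment, is not on the list and was looked at after the other values were seen; it was at 14.0 and 36.1, 2.58-fold higher.

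Degradation factors followed in part. SEL1L, a subunit of the ubiquitin ligase that removes misfolded proteins, was at 5.26 and 18.5, 3.52-fold higher (3.22 to 3.85), and HERPUD1 was at 15.8 and 32.0, 2.03-fold higher. The ligase gene SYVN1 was at 4.31 and 8.38, 1.94-fold, and EDEM1 at 8.71 and 10.1. The last 2 were not called. Among the regulators, DDIT3, the stress factor CHOP, was at 9.28 and 19.0, 2.05-fold higher, whereas XBP1 was at 73.9 and 118 (1.599-fold) and ATF4 at 72.4 and 80.5 (1.11-fold), neither of them called. TRIB3, a pseudokinase that CHOP induces, was the member called lower, at 17.8 and 6.61, 2.69 times lower (2.36 to 3.08). The amino acid genes of the ATF4 branch were mostly uncalled: ASNS was at 3.87 and 5.66, PSAT1 at 38.5 and 43.7, SHMT2 at 23.1 and 16.7 and SLC3A2 at 11.8 and 8.51. In this branch SLC7A1, an arginine transporter, was 2.23-fold higher and CHAC1, a glutathione-degrading enzyme, 2.39-fold higher on 15 and 58 counts. STC2, a further member of the list, was called higher too, at 2.81-fold.

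The same list was not raised in the other pairs. In the LnCaP pair 2 of 37 tested members were called higher and 4 lower, with a median log2 fold of -0.26. In the LAPC4 pair 1 of 37 was called higher and 17 lower, with -0.49. HSPA5 was at 172 in LnCaP and 150 in LnCaP-abl, and at 241 in LAPC4 and 255 in LAPC4-CR. The pairs were scaled separately; on these scales VCaP had the lowest of the 6 levels and VCaP-CR the highest.

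The promoters of the chaperone genes are shown because 4 of them hold the same long motif. The endoplasmic reticulum stress response element is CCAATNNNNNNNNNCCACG, here searched on both strands in the 250 bases before each RefSeq start site, and it is in capitals below. HSPA5 (chr9:125241344-125241593, minus strand), HSP90B1 (chr12:103930160-103930409, plus strand, 2 matches), CALR (chr19:12938359-12938608, plus strand), CRELD2 (chr22:49918384-49918633, plus strand) and XBP1 (chr22:28800570-28800819, minus strand) are given in GRCh38.p14.
HSPA5: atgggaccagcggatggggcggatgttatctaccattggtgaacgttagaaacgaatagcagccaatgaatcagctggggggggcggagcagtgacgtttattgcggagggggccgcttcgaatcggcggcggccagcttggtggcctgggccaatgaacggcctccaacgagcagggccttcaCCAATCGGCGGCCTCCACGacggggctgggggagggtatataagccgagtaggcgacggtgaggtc
HSP90B1: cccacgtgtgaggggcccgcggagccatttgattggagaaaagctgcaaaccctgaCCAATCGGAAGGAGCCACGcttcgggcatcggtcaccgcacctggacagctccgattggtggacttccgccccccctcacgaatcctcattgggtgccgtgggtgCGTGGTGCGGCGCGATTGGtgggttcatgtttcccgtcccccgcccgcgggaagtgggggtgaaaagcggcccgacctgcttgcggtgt
CALR: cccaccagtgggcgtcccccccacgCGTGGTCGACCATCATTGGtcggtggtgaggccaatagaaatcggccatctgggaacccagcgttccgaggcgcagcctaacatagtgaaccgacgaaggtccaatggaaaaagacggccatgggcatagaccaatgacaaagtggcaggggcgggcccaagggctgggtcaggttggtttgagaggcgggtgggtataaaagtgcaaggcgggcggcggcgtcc
CRELD2: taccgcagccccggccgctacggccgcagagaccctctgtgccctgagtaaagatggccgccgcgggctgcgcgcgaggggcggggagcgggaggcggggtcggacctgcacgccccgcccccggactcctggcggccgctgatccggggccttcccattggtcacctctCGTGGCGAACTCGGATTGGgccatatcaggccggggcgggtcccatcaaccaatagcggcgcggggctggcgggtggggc
XBP1: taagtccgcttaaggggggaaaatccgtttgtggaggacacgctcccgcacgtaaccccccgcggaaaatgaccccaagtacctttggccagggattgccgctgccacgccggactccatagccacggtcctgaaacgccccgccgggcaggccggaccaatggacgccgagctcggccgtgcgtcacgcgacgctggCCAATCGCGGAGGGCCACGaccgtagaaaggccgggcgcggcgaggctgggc
This motif is in 22 of 27305 RefSeq promoters (0.0806%) and in 10 of the 7660 tested genes that matched a promoter by symbol. It is in 4 of the 339 matched genes called higher and in 0 of the 260 called lower. All 4 are the chaperone genes printed above, out of 16 matched response genes called higher, and XBP1, which was not called, is the other list member with a match.

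Genes of neuroendocrine granules and neurons formed a further group that was higher. Of 26 tested members, 12 (46.2%) were called higher and 0 lower, against 4.42% and 3.62% of all tested genes. The median log2 fold was 0.93. A further 22 of the 48 listed genes were under the level filter. The filter takes the mean of the libraries, so a member under 1 in VCaP, such as SCG2 below, was counted only through its VCaP-CR level. At the thresholds and scalings run as alternatives, between 8 and 14 were called higher. CHGA (ENSG00000100604, hg18 chromosome 14, 92459178 to 92471391), the granule protein chromogranin A, had a level of 2.05 in VCaP and of 18.9 in VCaP-CR, 9.22-fold higher (7.26 to 11.9). SCG2, secretogranin II, was at 0.357 and 3.11, 8.70-fold higher (4.73 to 17.8), and SCG3, a granule sorting protein, was at 4.05 and 14.0, 3.45-fold higher. SCGN, a calcium-binding protein of endocrine cells, was the most abundant called member, at 12.4 and 80.7, 6.51-fold higher (5.64 to 7.56). CPE, which trims peptide hormones, was at 5.47 and 27.2, 4.97-fold higher (4.26 to 5.83). SYT4, a synaptotagmin of secretory vesicles, was at 1.68 and 9.21, 5.47-fold higher, and the granule genes CHGB and VGF were 2.66-fold and 2.69-fold higher. The neurofilament gene NEFH, the internexin gene INA, the vesicle fusion gene SNAP25 and BEX1 were 7.05-fold, 2.07-fold, 2.23-fold and 2.74-fold higher.

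Other markers of that lineage were not called higher. SYP, synaptophysin, was at 1.22 and 2.21, 1.81-fold (1.38 to 2.40), and ENO2, neuron-specific enolase, was at 2.99 and 2.46, and neither was called. Of 6 tested neuroendocrine transcription factors and Notch-pathway markers, 0 were called higher and 2 (33.3%) lower, against 4.42% and 3.62% of all tested genes. The other 19 of the 25 listed were under the level filter, so these counts rest on few genes. INSM1, a zinc-finger factor of neuroendocrine cells, was at 3.03 and 1.18, 2.58 times lower (1.85 to 3.61), and DLL3, an inhibitory Notch ligand, was at 4.23 and 1.12, 3.77 times lower (2.67 to 5.38). NEUROD1, a neuronal basic helix-loop-helix factor, was under the level filter, at 0.187 and 0.296. NPY, a neuropeptide gene that is not on the list and was looked at for its size, was at 74.4 and 7.17, 10.4 times lower (8.56 to 12.7). In the LnCaP pair 6 of 14 tested granule and neuronal genes were called higher and 3 lower, and in the LAPC4 pair 2 of 13 were called higher and 5 lower. CHGA was under the level filter in both of those pairs, at 0.518 or less.

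**Figure D3:**
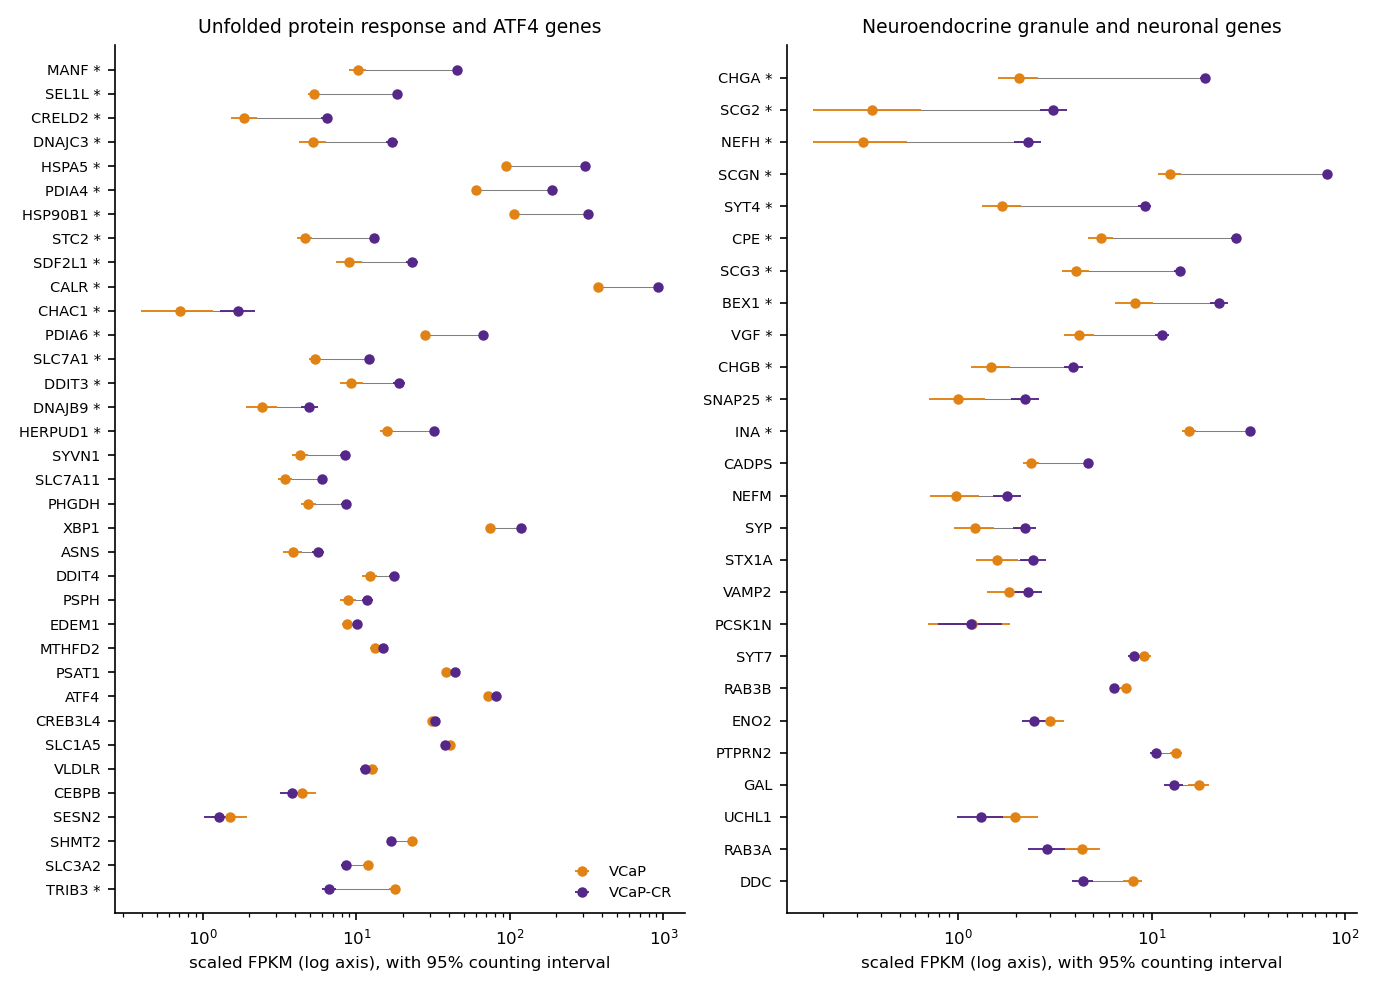
Scaled FPKM (x axes, log) in VCaP (orange) and VCaP-CR (purple) for the 35 tested unfolded protein response genes (left) and the 26 tested neuroendocrine granule and neuronal genes (right), in order of fold; bars are 95% counting intervals of the single library, and an asterisk marks a called gene. The upper rows show VCaP-CR above VCaP with bars that do not meet, from MANF to HERPUD1 on the left and from CHGA to INA on the right.

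The largest rises, ranked by ratio, were mostly in genes that VCaP barely expressed, which such a ranking favours. FAM133A, a poorly known gene of the X chromosome, went from 0.0776 scaled FPKM on 3 counts to 12.7 on 797 counts, a 164-fold ratio with a counting interval of 55.9 to 797. PI15 (hg18 chromosome 8, 75899327 to 75929819), a secreted inhibitor of trypsin, was at 0.284 and 34.96, 123-fold higher (81.9 to 194.4). DSG1, a desmosomal cadherin of skin, was at 0.269 and 13.5, 50.1-fold higher, and NAP1L3, a nucleosome assembly protein, at 0.636 and 28.1, 44.2-fold higher. CCL2, a chemokine that draws monocytes, was at 1.45 and 55.3, 38.2-fold higher (21.7 to 74.2). DOCK10, a guanine nucleotide exchange factor, was at 0.539 and 14.8, 27.4-fold higher (21.6 to 35.4). The orphan receptor gene GPR149, the matricellular gene NOV, the sulfotransferase gene CHST9 and ME1, malic enzyme, were 25.3-fold, 17.8-fold, 16.8-fold and 12.9-fold higher. NXF2B, 62.8-fold, has a near-identical copy beside it, so its value is uncertain.

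Among the 15 largest rises, 2 genes were also called higher in the LnCaP pair and 2 in the LAPC4 pair, where 10 and 12 of the 15 were under the level filter. NAP1L3 and HLA-DMA were instead called lower in the LnCaP pair. DOCK10 was called higher in all 3 pairs, at 0.511 and 15.6 in the LnCaP pair and at 0.652 and 4.50 in the LAPC4 pair. PI15 was instead at 0.390 or less in the 4 other libraries.

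The largest falls mixed secreted, ciliary, channel and immune genes. C1orf194, a gene of motile cilia, was at 34.1 and 0.353, 96.6 times lower (48.6 to 225). CST2, a salivary cystatin, was at 7.80 and 0.146, 53.5 times lower on 66 and 2 counts, and HVCN1, a voltage-gated proton channel, was 27.7 times lower. GDF15, a stress-induced cytokine, was at 30.0 and 1.18, 25.4 times lower (17.1 to 39.3), and it was lower in the LnCaP pair (183 and 7.57) and the LAPC4 pair (182 and 1.21) too. CYP4F8, a cytochrome P450 of the seminal tract, was at 44.7 and 2.68, 16.7 times lower (13.6 to 20.8). RYR2, a calcium release channel, was 15.7 times lower, and ADRA2A, an adrenergic receptor, 15.2 times lower. RIPK4, a kinase of epithelial differentiation, was at 60.4 and 3.98, 15.2 times lower (13.5 to 17.1), but at 2.87 and 3.62 in the LnCaP pair. Of the 15 largest falls, 5 were also called lower in the LnCaP pair and 4 in the LAPC4 pair, where 7 and 9 of the 15 were under the level filter. ADRA2A was instead called higher in the LnCaP pair, 3.85-fold.

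Proteins with a CAP domain, a secreted fold shared by the CRISP family and pathogenesis-related proteins, moved to both sides. PI15 and CRISPLD1, at 1.28 and 21.1 (16.4-fold, 12.8 to 21.3), were called higher. CRISP3 and its neighbour CRISP2, at 3.04 and 0.324 (9.36 times lower), were called lower. The remaining tested member, GLIPR2, was at 1.73 and 0.976 and was not called. PI15 and CRISPLD1 lie side by side on chromosome 8, and the genes before them were higher as well. In hg18 chromosome 8, 75395920 to 76109348, all 4 consecutive tested genes were called higher, GDAP1, a mitochondrial fission factor, at 9.64 and 56.8 (5.90-fold) and RP11-758M4.1 at 0.547 and 5.74 (10.5-fold). In the LnCaP and LAPC4 pairs 0 of the 4 were called higher. PI15 and CRISPLD1 were under the level filter in both of those pairs, so they could not be called there. Near DSG1 on chromosome 18 (22749595 to 27432982) 4 of 6 neighbours were called higher, among them DSG2, the widespread desmoglein, at 28.0 and 83.6 (2.99-fold) and TTR, a carrier of thyroxine, at 6.39 and 15.9.

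Chemokine and NF-kappaB genes were divided. NF-kappaB is a transcription factor of inflammation that induces its own inhibitors. Of 10 tested chemokines and cytokines, 4 (40%) were called higher, CCL2, CCL20, CXCL10 and TNFSF15, and 2 (20%) lower, GDF15 and IL1A. CCL20 and CXCL10 rested on 8 counts each in VCaP. Of 15 tested NF-kappaB targets, 5 (33.3%) were called higher and 2 (13.3%) lower. Over all tested genes 4.42% were called higher and 3.62% lower. TNFAIP3, a deubiquitinase that ends the signal, was at 0.439 and 1.94, 4.42-fold higher (2.90 to 7.01), and NFKBIZ, an atypical inhibitor, at 0.973 and 2.67, 2.74-fold higher. Both were under 1 in VCaP and passed the level filter only through VCaP-CR, which favours a higher call. ICAM1, an adhesion molecule for leukocytes, was at 3.21 and 1.16, 2.77 times lower. NFKBIA, the classical inhibitor, was at 13.0 and 18.4 and was not called.

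HLA and antigen presentation genes were called in both directions. Of 11 tested members, 5 (45.5%) were called lower and 1 (9.09%) higher, against 3.62% and 4.42% of all tested genes. The median log2 fold was -0.22, or -0.02 with the length and GC trend removed. Between 1 and 8 were called lower over the alternatives, and the summed level of the list was 133 and 163. HLA-DMB and HLA-DMA encode the chains of the dimer that loads peptides on class II molecules, and they went opposite ways: HLA-DMB was at 10.8 and 0.621, 17.4 times lower (13.1 to 23.5), and HLA-DMA at 0.364 and 5.33, 14.6-fold higher (8.05 to 29.7). HLA-DRB1 was at 9.13 and 0.399 and HLA-DRB5 at 5.26 and 0.216, while HLA-DRA, their partner chain, was at 0.207 and 0.213. HLA-B was at 2.41 and 0.779 and HLA-C at 2.74 and 1.14. Reads of HLA genes can be shared between copies and alleles, so these values are uncertain. B2M, the invariant class I chain, was at 90.9 and 139 and was not called. Of the 11 tested members 9 lie in the stretch of chromosome 6 described below. These include all 5 of the lower members and also HLA-DMA, the 1 called higher.

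Metabolic genes of glycolysis and hypoxia leaned upward. Of 33 tested, 6 (18.2%) were called higher and 0 lower, against 4.42% and 3.62% of all tested genes. The median log2 fold was 0.30. HK2, hexokinase, was at 1.76 and 6.29, 3.57-fold higher (2.94 to 4.36), PDK1, which keeps pyruvate from the mitochondrion, at 11.7 and 29.2, 2.49-fold higher, and the prolyl hydroxylase gene P4HA1 at 6.46 and 21.7, 3.36-fold higher. EGLN3, ALDOC and PFKP were 2.33-fold, 2.20-fold and 2.16-fold higher. Abundant glycolytic genes were level, with GAPDH at 677 and 582 and ENO1 at 190 and 194.4, and VEGFA was at 2.11 and 1.86. P4HA1 acts on collagen, and so does the lysyl hydroxylase gene PLOD2, at 0.532 and 3.81, 7.17-fold higher. Both are on a list of collagen and matrix genes, which went both ways. Of its 16 tested members 2 were called higher and 2 lower, with a median log2 fold of -0.09. FKBP10, also on that list, was 2.33 times lower.

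Of 14 tested axon guidance and adhesion genes, 5 (35.7%) were called higher and 0 lower, against 4.42% and 3.62% of all tested genes. Between 1 and 9 were called higher over the alternatives. The 5 include AMIGO2, the synaptic adhesion genes NLGN1 (0.444 and 2.42) and NRXN3 (0.769 and 1.73), and EFNB2, an ephrin ligand, at 19.9 and 42.0. AMIGO2, NLGN1 and NRXN3 were under 1 in VCaP and passed the level filter only through VCaP-CR. Of 7 tested basal epithelial genes, 3 (42.9%) were called higher, but 0 to 3 over the alternatives, and 2 higher and 1 lower with the length and GC trend removed. One of the 3 was the P-cadherin gene CDH3 at 0.688 and 4.91, 7.14-fold higher (5.02 to 10.5). CDH3 likewise passed the level filter only through VCaP-CR. KRT5, a defining basal keratin, was at 0.288 and 0.292. DSP, which anchors desmosomes to keratins, was at 3.91 and 12.7, 3.24-fold higher.

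Of 24 tested p53 targets, 4 (16.7%) were called lower (GDF15, BBC3, FAS and TP53INP1) and 0 higher. Over all tested genes 3.62% were called lower and 4.42% higher. The median log2 fold of the p53 targets was -0.25. Between 3 and 6 were called lower over the alternatives. FAS, a death receptor, was at 14.5 and 4.87, 2.98 times lower (2.71 to 3.29). Of 43 tested G1/S genes 1 (2.33%) was called lower, TYMS at 41.5 and 20.1, and 0 higher, with a median log2 fold of -0.35. A lower level in VCaP-CR was seen in 36 of the 43, against 5226 of all 10488 tested genes. Of 55 tested G2/M genes 0 were called in either direction, with a median of -0.22, and 42 had a lower level. MKI67, a proliferation marker, was at 7.39 and 11.9. Of 86 tested cytosolic ribosomal protein genes 0 were called.

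**Figure D4:**
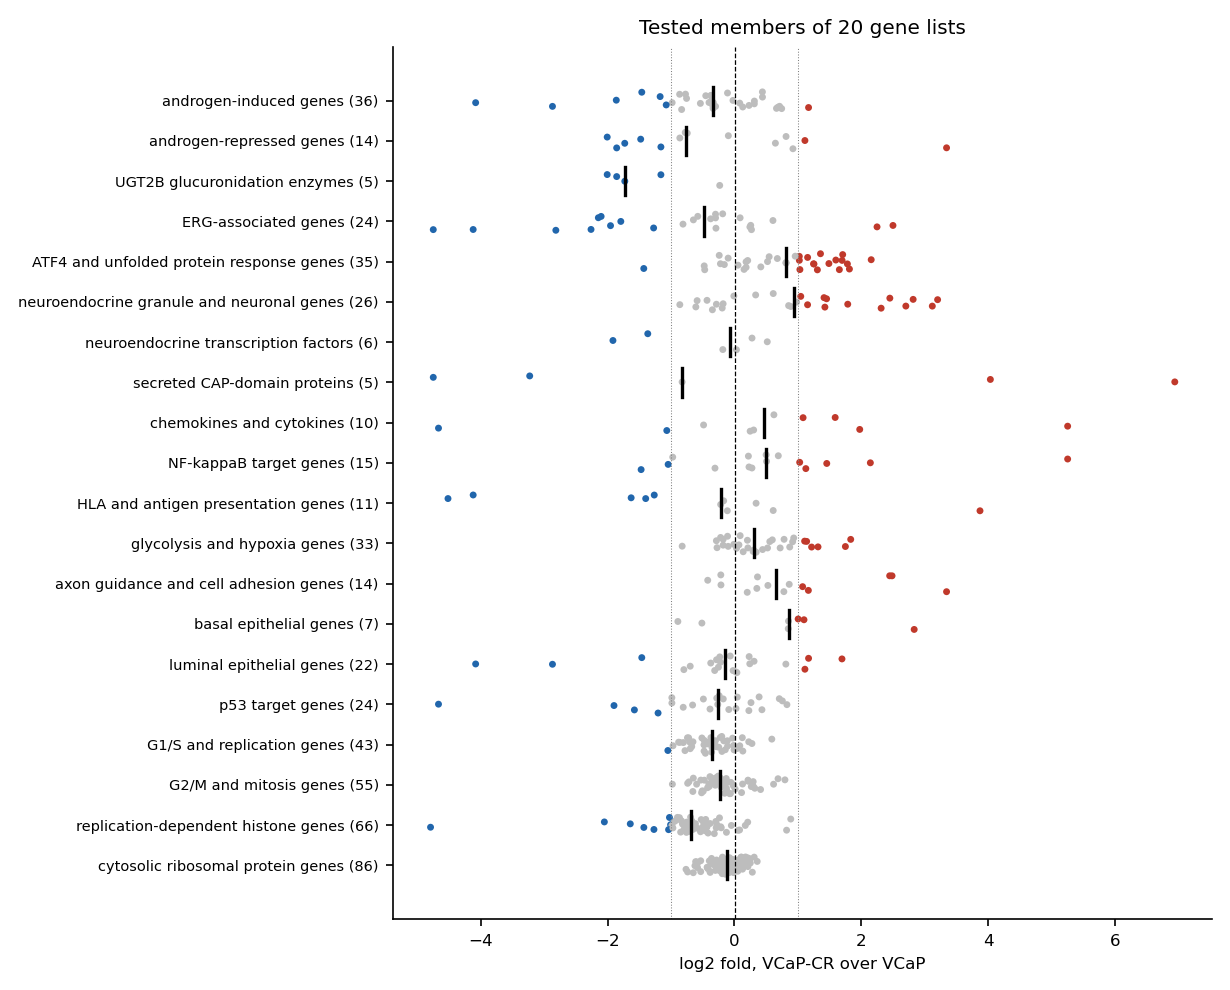
Log2 fold of VCaP-CR over VCaP (x axis) for the tested members of 20 gene lists (rows, number of tested members in brackets); red points were called higher, blue points lower and grey points neither, the black bar is the list's median and the dashed line the median of all tested genes. The medians of the unfolded protein response list (0.81) and the granule list (0.93) lie to the right, and that of the UGT2B enzymes to the left; points are spread vertically only for visibility.

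Where the called genes lie in the genome was asked next, in hg18 coordinates. DNA copy number was not measured. Runs of neighbours, defined as at least 3 called genes among 5 consecutive tested genes, held 86 of the lower genes in 18 runs and 73 of the higher genes in 23 runs. The largest run held 15 lower genes, and no run of higher genes held more than 4.

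At the end of chromosome 5, from KIAA1191 to TRIM52 (175705670 to 180620725), 26 of 50 tested genes were called lower and 1 higher. Of the 50 genes, 44 had a lower level in VCaP-CR, and the median log2 fold was -1.05. The block was drawn around runs of called genes after the values were seen, so these counts describe it and test nothing. On the rest of chromosome 5, 28 of 407 tested genes were called lower, with a median of -0.13. Genes of unrelated function took part: F12, coagulation factor XII, was at 9.38 and 2.32, MXD3, a MYC antagonist, at 4.01 and 0.931, NHP2, a subunit of the H/ACA snoRNA complex, at 27.8 and 8.96, SQSTM1, an autophagy receptor, at 2.71 and 1.07 and MGAT1, which builds N-glycans, at 14.4 and 6.49. CANX, the membrane-bound relative of calreticulin, lies in the same block and was at 152 and 158. GNB2L1, a ribosome-bound scaffold, was at 480 and 259 and was not called. In the LnCaP and LAPC4 pairs the medians of these genes were 0.04 and -0.07, with 2 and 4 of them called lower.

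A similar block, drawn in the same way, lay on the short arm of chromosome 6, from ZNF318 to CDC5L (43407491 to 44526141). All 19 tested genes there had a lower level in VCaP-CR, 13 were called lower, and the median log2 fold was -1.16. SLC29A1, a nucleoside transporter, was at 22.7 and 7.36, SLC35B2, which carries sulfate donors into the Golgi, at 55.5 and 17.9, MRPL14, a mitochondrial ribosomal protein, at 69.3 and 22.5 and AARS2, a mitochondrial tRNA synthetase, at 9.09 and 3.03. HSP90AB1, the cytosolic HSP90 chaperone, was at 387 and 196 and just missed a call. In the other pairs the medians were 0.40 and -0.19.

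The second block ends a longer stretch in which most chromosome 6 genes had a lower level in VCaP-CR. Its bounds were chosen after the values were seen. From HIST1H3A to CDC5L (26128697 to 44526141), 205 of 236 tested genes (86.9%) were lower in VCaP-CR, 35 of them called, and the median log2 fold was -0.50. Before it, from EXOC2 to SLC17A4, the median of 63 genes was 0.48, with 0 called lower and 12 higher. After it, from ENPP4 to PDCD2, the median of 250 genes was 0.28, with 9 called lower and 25 higher. Without the histone genes and without the block that ends it, the stretch still had a median of -0.42 over 168 genes, and -0.28 with length and GC content accounted for. In the LnCaP and LAPC4 pairs the medians of the whole stretch were -0.04 and -0.16.

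Histone genes make up part of this stretch. Of 66 tested replication-dependent histone genes, 8 (12.1%) were called lower and 0 higher, against 3.62% and 4.42% of all tested genes. The median log2 fold of the 66 was -0.68, and 49 of them lie in the stretch and helped to set its median. With length and GC content accounted for, 4 of the 66 were called lower and 1 higher, with a median of -0.45. HIST1H2BH was at 188 and 6.80, 27.7 times lower, and the abundant linker histone gene HIST1H1C at 1251 and 743 was not called. The 15 tested histone genes of chromosome 1, outside it, had a median of -0.70 with 2 called lower, and the 50 of chromosome 6 a median of -0.64 with 6 called lower. In the LnCaP pair 18 of 68 tested histone genes were called lower and 1 higher, with a median of -0.54. In the LAPC4 pair 2 of 69 were called lower and 0 higher, with -0.24. Histone genes are near-identical copies, so single values are uncertain.

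On chromosome 13, by contrast, 18 of 181 tested genes (9.94%) were called higher and 0 lower, against 4.42% and 3.62% of all tested genes. The median log2 fold there was 0.33. With length and GC content accounted for, 9 of the 181 were called higher, against 4.2% of all tested genes, and the median was 0.29. On chromosome 19, 45 of 776 tested genes (5.80%) were called lower and 7 (0.902%) higher, which became 21 and 15 with the length and GC trend removed. In windows of 25 consecutive tested genes on 23 chromosomes, the lowest median was -1.35, inside the chromosome 5 block, and the highest 0.69, on chromosome 6 before the stretch.

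**Figure D5:**
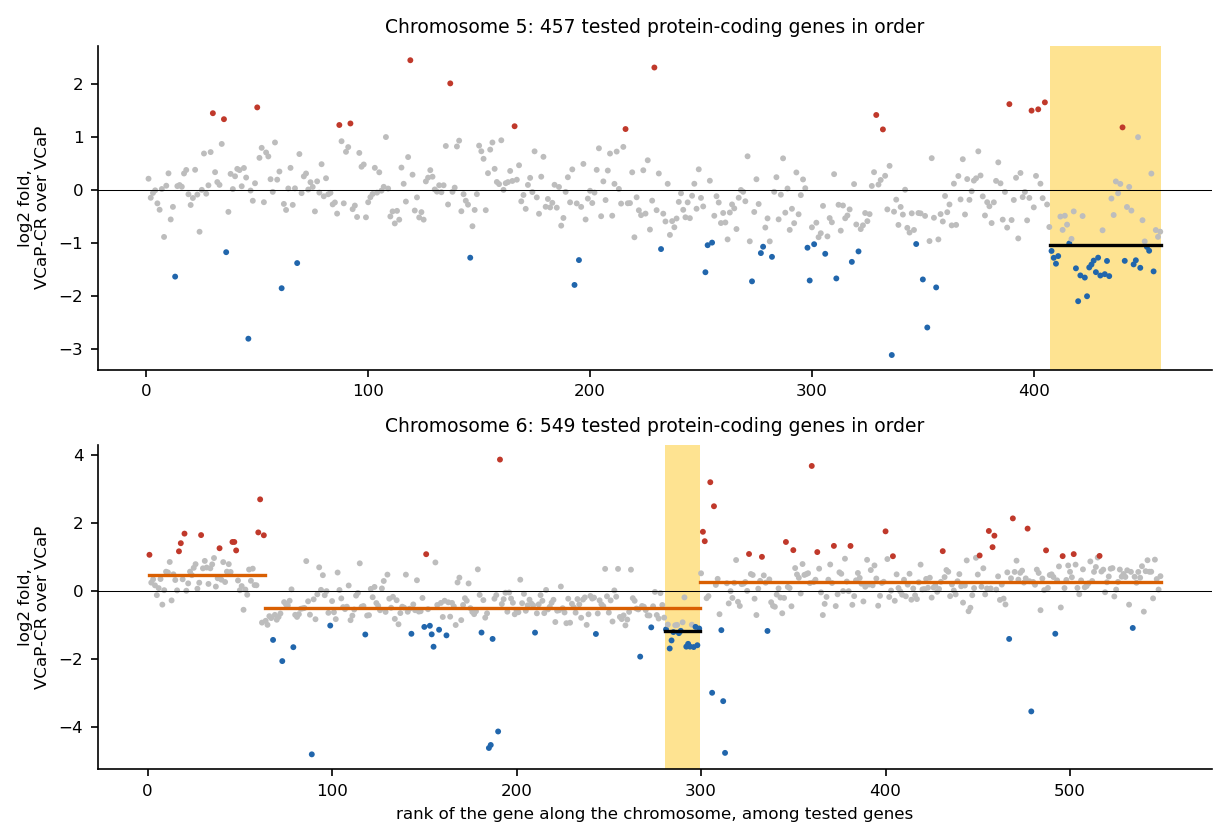
Log2 fold of VCaP-CR over VCaP (y axis) for the tested protein-coding genes of chromosomes 5 and 6, placed by their rank along the chromosome (x axis); red points were called higher, blue lower and grey neither. Yellow bands and black bars mark the blocks with medians of -1.05 and -1.16, and orange bars on chromosome 6 mark the medians of the segments before, within and after the long stretch (0.48, -0.50 and 0.28).

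The calls of the VCaP pair were also set beside those of the other pairs, which share no library with it. Of the 464 genes called higher, 79 (17.0%) were also called higher in the LnCaP pair and 123 (26.5%) in the LAPC4 pair, where 9.43% and 9.7% of all tested genes were called higher. The shares of 17.0% and 26.5% are of all 464, and a gene without a test in the other pair counts as not called there. The 285 called higher in neither also include such genes, since 293 of the 464 were tested in both other pairs and 94 in neither. Of the 380 called lower, 57 (15%) and 68 (17.9%) were also called lower, against 8.79% and 9.22% of all tested genes. These shares and the 273 called lower in neither are limited likewise, since 246 of the 380 were tested in both other pairs and 78 in neither. The 23 genes higher in all 3 pairs include CLU, a secreted chaperone (7.51 and 19.6 in the VCaP pair), WNT5A, a WNT ligand (0.717 and 2.79), BAMBI, a decoy receptor for TGF-beta (0.535 and 3.02), NEDD9, a docking protein (8.55 and 26.9) and CPE. The 18 genes lower in all 3 include KLK3, TRPM8, PTGER4, TRIB3 and SOCS2, a feedback inhibitor of cytokine signalling (2.09 and 0.974). These genes were picked as examples after their values were seen.

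A set of 15 genes was called in the VCaP pair and called the opposite way in both other pairs, 13 of them higher in VCaP-CR. TMEFF2, a membrane protein of prostate and brain, was at 1.69 in VCaP and 15.8 in VCaP-CR, 9.32-fold higher (7.78 to 11.2), but at 10.4 and 0.198 in the LnCaP pair and 3.29 and 0.218 in the LAPC4 pair. GPR158, an orphan receptor, was at 1.21 and 3.10, against 17.6 and 0.609 and against 6.68 and 0.648. The glucose transporter gene SLC2A12 was at 1.64 and 5.10, against 6.62 and 3.09 and against 4.84 and 1.38. ABHD2, a lipid hydrolase, was at 22.1 and 48.8, against 66.5 and 17.2 and against 43.0 and 18.5. With MAP1B (0.826 and 3.31 in the VCaP pair) and EFNB2, they were higher in VCaP-CR and lower in both other resistant lines.

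Of the markers of other cell types, 4 passed the level filter and 2 were called, both higher. Of 9 fibroblast markers only LUM, the matrix proteoglycan lumican, was tested, at 3.41 and 43.9, 12.9-fold higher (10.7 to 15.7). EPYC, another small proteoglycan near LUM on chromosome 12, was at 0.196 and 5.50, 28.1-fold higher (10.8 to 104) on 4 and 182 counts. The defining fibroblast genes COL1A1 and COL3A1 were at 0.145 and 0.169 in VCaP and at 0.224 and 0.112 in VCaP-CR, and none of the 9 markers was at 0. The summed level of the list was 5.14 and 46.5, and the part of other cells in these values was not tested. Of 6 endothelial and 11 immune markers 0 passed the level filter, with summed levels of 1.44 and 0.998 and of 2.36 and 2.48. PTPRC, the common leukocyte antigen, was at 0.114 and 0.179. Of 7 skeletal and smooth muscle markers only ACTA1, skeletal actin, was tested, at 2.07 and 4.41, 2.13-fold higher (1.45 to 3.20), and the list summed to 3.61 and 5.89. Of 7 nerve and glial markers 2 were tested and 0 called, with MBP, myelin basic protein, at 4.73 and 4.21, and the list summed to 6.67 and 6.82.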

How the data were processed

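Per the labels' protocols, VCaP and VCaP-CR cells gave RNA by the RNeasy method, and the SOLiD Total RNA-Seq kit turned it into a library for each line. The submitters' processing notes name HTSeq and hg18; for the aligner, annotation and strand the sources used here give nothing, so overlapping genes are uncertain. Per the file headers, the authors deposited a count and an FPKM value for each gene. The deposited FPKM was rebuilt within 1% from count, length and library total, so FPKM moves with what the other RNAs take up; MTRNR2L genes took 14.2% and 14.6% of the coding counts.

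Protein-coding entries of the same symbol were summed (8 symbols), and 25 symbols turned into dates were restored by identifier. FPKM was divided by 0.980 in VCaP and 1.02 in VCaP-CR. The second factor is the square root of the median VCaP-CR over VCaP ratio, and the first is the inverse of that root. The median was taken over 9897 genes at 1 FPKM or more in both. Intervals are Clopper-Pearson intervals at 95% of VCaP-CR's share of the summed counts, turned into a ratio. No test across samples was possible. GC content came from GENCODE 29 and was found for 98.4% of tested genes. The calling rule was tested on simulated counts. Python 3.11.15, numpy 2.4.6, scipy 1.17.1, pandas 2.3.3 and, for the scaling alternative TMM, edgeR 4.0.16 in R 4.3.3 were used.

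Named genes are a set of KLK3, KLK2, TMPRSS2, FKBP5, ERG and CHGA, the 15 largest folds in each direction with at least 50 counts in the higher library, leading and defining members of the lists described, and members of the runs described; other names are marked as chosen after their values were seen. Some genes that these rules name are not reported here, though counts include them. The members, the 45 gene lists and this rule were chosen with earlier results of these data known. Lists not described in the text had no more than 3 members called higher and no more than 4 called lower.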

Additional observations from a re-analysis of the deposited data

Results flagged for a closer look

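In 15 genes the VCaP pair was called one way and both other pairs the opposite way, and 14 of them are given here. With 1 library a line these differences between pairs were not tested. Higher in VCaP-CR, at these folds, were TMEFF2 (9.32), MAP1B (4.01), LIX1L (3.33), SLC2A12 (3.11), FAM105A (2.72), GPR158 (2.56), C3orf43 (2.40), GSTT2 (2.31), GLYATL1 (2.24), ABHD2 (2.21), LPAR3 (2.19) and EFNB2 (2.11). Lower in VCaP-CR were TMEM51, at a fold of 0.426, and DPY19L1, at 0.35. GSTT2 has a near-identical copy, so its value is uncertain.

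Outside the protein-coding genes, 4402 entries passed the level filter, 198 of them called higher and 172 lower, and 3 rose by more than 16-fold. The pseudogene RP1-106C24.1 (hg18 chromosome X, 137716202 to 137716919) had 5 counts in VCaP and 16257 in VCaP-CR, a 2010-fold ratio with a counting interval of 860 to 6182, and at most 5 counts in each of the other 4 libraries. It lies within FGF13, which was at 15.8 and 8.28 scaled FPKM. The long noncoding RNA RP11-246K15.1 had 2 and 100 counts, a 30.9-fold ratio (8.32 to 258). AP001318.3, another long noncoding RNA, had 23 and 1086 counts, 29.1-fold higher (19.3 to 46.2), and between 52 and 175 counts in the other libraries.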

How the results depend on the processing

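The counts of 464 higher and 380 lower genes moved most with the level filter and the threshold. Without a filter they were 709 (3.63% of tested genes) and 774 (3.96%), and with a filter at 5 scaled FPKM 184 (3.44%) and 126 (2.36%). On the log2(scaled FPKM + 1) scale they were 246 (2.35%) and 204 (1.95%), and where the whole counting interval had to pass 2-fold, 2.51% were higher and 1.85% lower. Under the other 9 settings they lay within 1.5 times of the reported counts, and no gene was called the opposite way under any of the 13 settings. The share of calls that were higher was 55.0%, but 61.7% with library totals alone, 62.9% without the MTRNR2L genes and 47.7% with coding totals. Those scalings moved the median log2 fold of all tested genes by less than 0.1.

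List counts, whose members can differ between settings, had these ranges over the alternatives. Lower members numbered 5 to 7 in the androgen-induced genes (6 reported), 2 to 8 in the androgen-repressed (5), 5 to 11 in the ERG-associated (9), 2 to 6 in the UGT2B (4), 3 to 11 in the histone (8), 1 to 8 in the HLA (5), 3 to 6 in the p53 target (4) and 0 to 2 in the neuroendocrine factor list (2). Higher members numbered 12 to 17 in the unfolded protein response (16), 8 to 14 in the granule and neuronal (12), 3 to 8 in the glycolysis and hypoxia (6), 1 to 6 in the NF-kappaB (5), 1 to 6 in the chemokine (4), 1 to 9 in the axon guidance (5) and 0 to 3 in the basal list (3). The removal of the length and GC trend and the settings without MTRNR2L genes or without the blocks of neighbours were chosen after seeing the data. No paired analysis was possible because each line has 1 library. Genes with few counts in 1 library, such as FAM133A and CST2, have wide intervals at this depth, and the spread between cultures is unknown.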

Other observations

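Some gene groups outside the comparisons above also held called members. Of 6 tested neighbours from SKAP2 to HOXA11 on chromosome 7 (hg18, 26673206 to 27191367), 4 were called higher in VCaP-CR. HOXA11, a homeobox gene of limb and reproductive tract patterning, had a level of 1.61 scaled FPKM in VCaP against 5.79 in VCaP-CR, 3.60-fold higher (2.59 to 5.12), and HOXA5 was at 2.23 and 5.37, 2.41-fold higher. HOXA9 was at 1.54 and 0.975 and was not called. In the LnCaP pair 4 genes of this run were called higher too, and in the LAPC4 pair 1.

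Of 16 tested interferon-stimulated genes 0 were called higher and 2 (12.5%) lower, against 4.42% and 3.62% of all tested genes. The median log2 fold was 0.04. LGALS3BP, a secreted galectin-binding protein, was at 16.1 and 1.23, 13.0 times lower (9.72 to 17.8), and IFITM3, which blocks virus entry, was at 2.91 and 0.925 on 35 and 18 counts. Of 17 tested ETS factors, FEV and ELF4 were called higher, at 0.345 and 1.92 and at 4.20 and 10.7, and ETS2 and ERG lower. FEV passed the level filter only through VCaP-CR.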
